A study of Mus musculus with 15 samples.

Results

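The Bcl2 family decides whether a cell keeps its mitochondria intact or undergoes programmed death. Bcl2, Bcl2l1 (Bcl-xL) and Mcl1 hold the pore-forming proteins Bax and Bak1 in check, and the BH3-only proteins Bad, Bid, Bcl2l11 (Bim), Bbc3 (Puma) and Pmaip1 (Noxa) relieve that block or activate the pore. In blood stem cells Mcl1 is known to be required for survival, and forced Bcl2 raises their number. These 10 genes were taken as a list by gene symbol, and the list was chosen with earlier results of these data known. For 9 of them at least 1 probe set carried that symbol alone, 23 probe sets in all, out of 17097 genes and 28898 probe sets with 1 symbol. Bax was not analysed here. The brightest probe set of a gene, by its mean over all arrays, stands for the gene, and the others served as a check.

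Expression was measured on 15 microarrays in 5 groups of 3, from LSK cells, the lineage-negative, Sca-1-positive, Kit-positive marrow cells among which blood stem cells and early progenitors are found. Marrow of female C57Bl/6 mice that had received 5-fluorouracil (5-FU) was infected with an MSCV retrovirus, put into lethally irradiated recipients, and sorted later by fluorescence. HOXB4 cells carried MSCV-HOXB4-ires-YFP, which couples the homeobox factor HOXB4 to a yellow reporter, and were taken at 6, 12 and 20 weeks after transplantation. GFP cells carried MSCV-ires-GFP, the same type of vector with a green reporter alone, and were taken at 12 and 20 weeks. All 5 groups thus share the drug-treated donors, the viral infection and the irradiated hosts, and the reporter colour differs between the vectors. The last time is that of the sample titles, and the series text gives a later week for it. The labels do not say whether the arrays of a group came from separate mice, and p-values reflect the spread between arrays alone, which may be technical.

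Values are the authors' log2 RMA signals, and each array's median lay between 5.25 and 5.40. No detection calls were used, so a low value may be background, and the number of arrays limits the precision. Differences are log2 differences with the standard error (SE) of a limma fit to all 15 arrays, and a gene was called at a Benjamini-Hochberg adjusted p under 0.05 over the 17097 genes. Kit was at 7.89 to 8.79 on all arrays, and at 12 weeks it was lower in HOXB4 cells, with a mean of 8.07, than in GFP cells, with 8.70 (limma, adjusted p = 0.014). Of 8 stem cell markers, Kit and Cd34 were called lower in HOXB4 cells at 12 weeks, and Flt3, Slamf1 and Gata2 higher at 20 weeks. Slamf1 at 20 weeks was at 5.15 to 8.32 in HOXB4 cells, against 4.84 to 5.17 in GFP cells, so these groups overlapped. Flt3 was at 9.41 to 9.49 in HOXB4 cells, against 7.40 to 9.08 in GFP cells of that time. The T cell antigen Cd3e was at 3.82 to 5.07. Ly6a, which encodes Sca-1, was not analysed here. The first HOXB4 array of 6 weeks stood apart in RNA quality, where the 3' Gapdh control exceeded the 5' control by 3.76 (log2), while this gap was 0.81 to 2.02 elsewhere. The 2.02 was on the third HOXB4 array of 20 weeks. The other arrays of 6 weeks were at 1.68 and 1.71, above all arrays of 12 weeks. Comparisons without the first array thus still carry a Gapdh difference. The same gap for the Actb control was -1.02 and -0.87 on these arrays and -0.32 on the first. Markers of other cells moved between the groups. The mean log2 level of 10 B cell markers at 12 weeks was 8.54 to 9.10 in HOXB4 cells, against 5.72 to 5.99 in GFP cells, and at 20 weeks 9.02 to 9.82 in HOXB4 cells, against 6.65 to 8.54 in GFP cells. The myeloid markers are given beside the genes they moved with.

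Bid was the member that differed between the vectors at both times. It was lower in HOXB4 than in GFP cells, 1.78-fold at 12 weeks and 1.8-fold at 20 weeks. No other member was called in either comparison. Bid is the BH3-only protein that caspase 8 cleaves, which links death receptors at the cell surface to the mitochondria.

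At 12 weeks Bid was at 7.13, 7.31 and 7.14 in HOXB4 cells, against 8.10, 8.03 and 7.95 in GFP cells. All HOXB4 arrays lay below all GFP arrays. The difference was -0.83 ± 0.21 (SE; 95% interval -1.29 to -0.38; limma, adjusted p = 0.0414). At 20 weeks Bid was at 7.64, 7.64 and 6.76 in HOXB4 cells, against 8.20, 8.20 and 8.18 in GFP cells. The groups again did not overlap, the GFP arrays lay close together, and the third HOXB4 array was well below the other 2. This difference was -0.85 ± 0.21 (95% interval -1.30 to -0.39; limma, adjusted p = 0.0211). The effects at the 2 times differed by -0.01 ± 0.30 (limma, adjusted p = 0.997). In HOXB4 cells at 6 weeks Bid was at 7.71, 7.63 and 7.02, below all 6 GFP arrays, but no GFP group of that age was compared. In bulk RNA of this kind, fewer cells of a type that expresses a gene and less of its RNA per cell cannot be told apart.

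The calls for Bid lay near the threshold. At 12 weeks the call was lost without any 1 of the 6 arrays (-0.89 to -0.80, adjusted p = 0.0917 to 0.149), and at 20 weeks without the third HOXB4 array (-0.55, adjusted p = 0.0674) or the first or second GFP array (both -0.84, adjusted p = 0.0679 and 0.0723).

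The 2 other probe sets of Bid were lower in HOXB4 cells as well. At 12 weeks they differed by -0.58 ± 0.31 and -0.44 ± 0.19 and were not called (limma over all 28898 probe sets with 1 symbol, adjusted p = 0.341 and 0.233). At 20 weeks they differed by -1.21 ± 0.31 and -1.43 ± 0.19 and both were called (adjusted p = 0.0234 and 0.000274). The dimmest of them has a name ending that marks probes able to bind other transcripts, and it averaged 3.32 in HOXB4 cells, against 4.75 in GFP cells, at 20 weeks.

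Genes of granulocyte-monocyte progenitors were lower on the same arrays as Bid. The mean log2 level of 9 such markers at 12 weeks was 8.61 to 8.96 in HOXB4 cells, against 10.25 to 10.37 in GFP cells, and at 20 weeks 7.94 to 8.65 in HOXB4 cells, against 10.34 to 11.04 in GFP cells. Of these 9, 7 were called lower at 12 weeks and all 9 at 20 weeks, among them Elane, Prtn3 and Ctsg, which encode granule proteases. Markers of mature neutrophils went another way at 12 weeks, with a mean of 7.45 to 7.94 in HOXB4 cells, against 6.28 to 6.94 in GFP cells. At 20 weeks they were at 6.07 to 7.20 in HOXB4 cells, against 8.84 to 8.86 in GFP cells. Monocyte and macrophage markers were lower on the HOXB4 arrays at both times. The mean of these 10 genes at 12 weeks was 6.26 to 6.55 in HOXB4 cells, against 6.65 to 6.93 in GFP cells. At 20 weeks it was 6.33 to 6.57 in HOXB4 cells, against 7.75 to 7.82 in GFP cells. Of the 10, 1 was called lower at 12 weeks and 6 at 20 weeks. The HOXB4 array with the lowest Bid at 20 weeks had a progenitor marker mean of 8.12, between the other 2 HOXB4 arrays at 8.65 and 7.94. The part of these cells in the Bid difference was not tested.

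**Figure D1:**
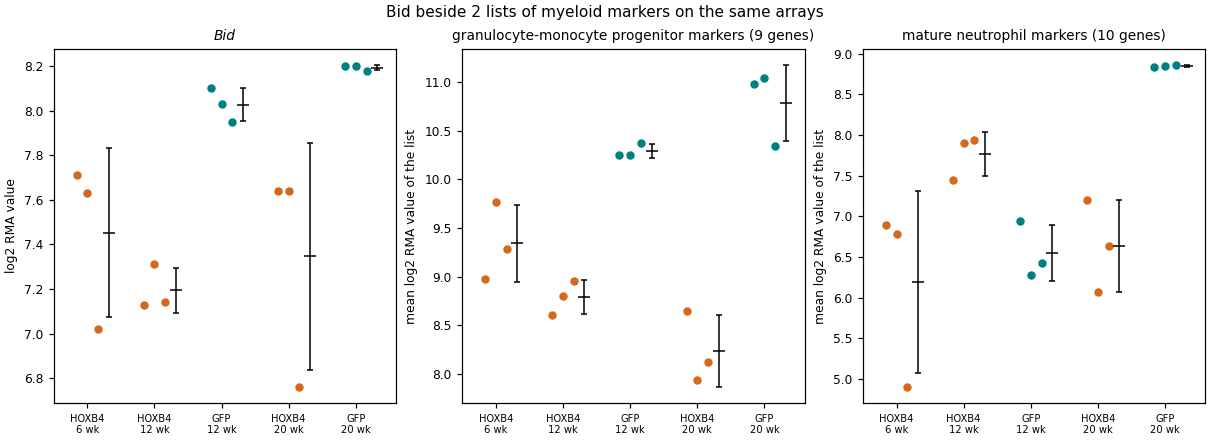
Bid (left, log2 RMA value), the mean log2 RMA value of 9 granulocyte-monocyte progenitor markers (middle) and of 10 mature neutrophil markers (right) on each array; points are arrays in replicate order, bars the group mean ± SD (n = 3), orange HOXB4 and teal GFP. Bid and the progenitor markers were lower on every HOXB4 than on every GFP array, while the neutrophil markers were higher in HOXB4 cells at 12 weeks and lower at 20 weeks.

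Predicted genes, with symbols of Gm plus digits or ending in Rik, were left out of the search for genes that followed Bid. Among the rest, Dus1l (Pearson r = 0.98), which encodes a dihydrouridine synthase, followed Bid most closely over the 15 arrays. Next were Sec23b (0.95) and Sec24d (0.94), which encode coat proteins of vesicles leaving the endoplasmic reticulum. These are descriptions over arrays that share groups, processing and the marker differences above.

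The stretch before the start of Bid holds a TAAT, the core that many homeodomain proteins bind, 244 bases before the RefSeq start. It is shown because Bid was the member called in both vector comparisons. In GRCm38.p6 it lies at chr6:120917045-120917074 on the minus strand, and 18 of its 30 bases fall inside the span of the gene because another RefSeq model starts further upstream. The capitals mark the TAAT.
Bid: gctatgTAATacatcaagacaatgcggaga

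This motif is common. TAAT, or ATTA on the other strand, was in 54.9% of the 32851 RefSeq windows of 250 bases before a start, and in 5 of the 15 windows found for 9 of the 10 listed genes, those of Bcl2l1, Bax, Bad and Bid. A match is a description of letters and not a binding site.

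**Figure D2:**
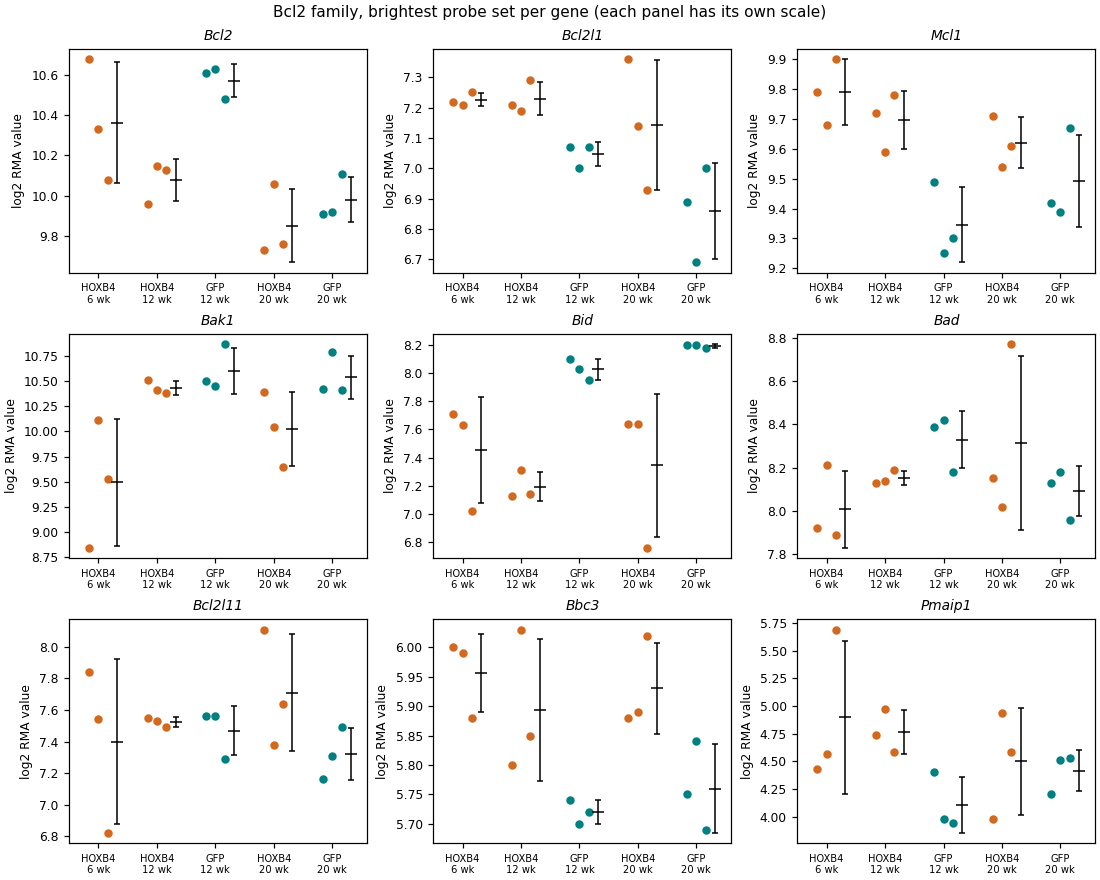
Log2 RMA values of the brightest probe set of the 9 measured genes; points are arrays in replicate order, bars the group mean ± SD (n = 3), orange HOXB4 and teal GFP, and each panel has its own scale. Bid separated the vectors at both times, Bcl2 had its highest mean in GFP cells at 12 weeks, and Bak1 was lowest on the first HOXB4 array of 6 weeks.

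Of the 9 genes at 12 weeks, 1 was called, Bid, and it was lower, against a background of 4.02% of all genes called and 2.2% called lower. An unadjusted p under 0.05 was reached by 4 of the 9, and by 19.6% of all genes. The arrays of the vectors did not overlap for 6 of the 9 (Bcl2, Bcl2l1, Mcl1, Bid, Bbc3 and Pmaip1), while 34.8% of all genes were separated in this way. The median difference of the 9 was 0.05, beside -0.02 over all genes. At 20 weeks 1 of 9 was again called, beside 8.95% of all genes and 5.18% called lower, and 2 reached an unadjusted p under 0.05, beside 22.1% of all genes. Bak1, Bid and Bbc3 were separated, 3 of 9, beside 25.4% of all genes, and the median was 0.13, beside 0.02.

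The 95% intervals of 7 of the 9 members lay within 2-fold in either direction at each time. The exceptions were Bid and Pmaip1 at 12 weeks and Bid and Bak1 at 20 weeks. For the difference between the 2 times 0 of 9 were called by limma and 0 had an unadjusted p under 0.05, beside 0.509% of all genes called, and the intervals of 6 of 9 lay within 2-fold.

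**Figure D3:**
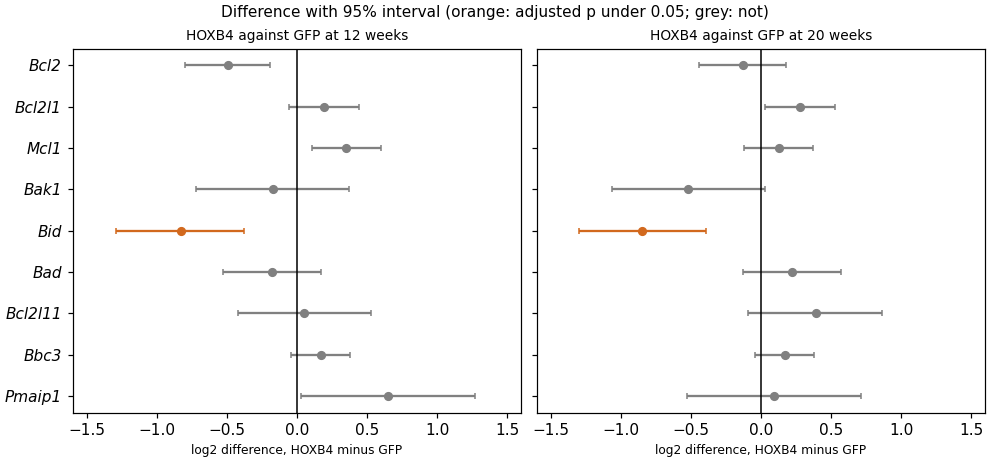
Log2 difference of HOXB4 minus GFP cells with its 95% interval for the brightest probe set of each gene at 12 weeks (left) and 20 weeks (right), 3 arrays a group; orange marks an adjusted p under 0.05. Bid is the gene called at both times, at -0.83 and -0.85.

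Bcl2, the founding survival member, fell with time in GFP cells. It was at 9.91, 9.92 and 10.11 in GFP cells at 20 weeks, against 10.61, 10.63 and 10.48 in GFP cells at 12 weeks. The 2 ages did not overlap. The difference was -0.60 ± 0.14 (SE; 1.51-fold; limma, adjusted p = 0.0429), and Bcl2 was the 1 member called of 9, where 2.37% of all genes were called and 1.14% called lower. The second Bcl2 probe set differed by -0.71 (adjusted p = 0.122) and had a Pearson r of 0.85 with the first over the 15 arrays. The call for Bcl2 was lost without the first or second GFP array of 20 weeks or any GFP array of 12 weeks, with -0.64 to -0.56 and adjusted p = 0.0941 to 0.176 in these 5 fits.

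Markers of mature myeloid cells rose over the same interval. Of 10 mature neutrophil markers 6 were called higher in GFP cells at 20 than at 12 weeks, and of 10 monocyte and macrophage markers 7 were. The monocyte list averaged 7.75 to 7.82 at 20 weeks and 6.65 to 6.93 at 12 weeks. Itgam (CD11b), a surface antigen of mature myeloid cells, was at 6.63 to 6.76 in GFP cells at 20 weeks, against 4.83 to 4.86 at 12 weeks. Stem cell markers moved the other way, with a mean of 6.96 to 7.08 in GFP cells at 20 weeks, against 7.73 to 7.86 at 12 weeks, and of 8 such genes Cd34 and Procr were called lower. Of 9 megakaryocyte markers 4 were called lower, with a mean of 5.08 to 5.46 at 20 weeks, against 6.09 to 6.35 at 12 weeks. Of 10 B cell markers 1, Ighm, was called higher, and their median difference was 1.70. The part of any of these cells in the fall of Bcl2 was not tested.

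In HOXB4 cells Bcl2 was at 10.68, 10.33 and 10.08 at 6 weeks, at 9.96, 10.15 and 10.13 at 12 weeks, and at 9.73, 10.06 and 9.76 at 20 weeks. Values at 20 weeks lay below all those of 6 weeks, by -0.51 ± 0.14, which missed the threshold (limma, adjusted p = 0.0573). The highest of these values, 10.68, came from the array with the steep Gapdh signal, and without it the difference was -0.36 (adjusted p = 0.148). The second Bcl2 probe set gave -0.38 (adjusted p = 0.345), and -0.05 without that array (adjusted p = 0.881). At 12 weeks all HOXB4 arrays were below all GFP arrays, by -0.49 ± 0.14 (limma, adjusted p = 0.0702), with -0.49 on the second probe set (adjusted p = 0.237). The 12-week difference of the brightest probe set was called in 3 of 16 other settings, among them a fit to those 2 groups alone (adjusted p = 0.0101). The others left all 6-week arrays, or only the first of them, out of the shared fit. At 20 weeks the groups overlapped, with -0.13 ± 0.14 (adjusted p = 0.668). The effects of the vector at the 2 times differed by 0.37 ± 0.20 (adjusted p = 0.615), so they were not shown to differ. By their means the groups ranked GFP at 12 weeks, HOXB4 at 6 weeks, HOXB4 at 12 weeks, GFP at 20 weeks and HOXB4 at 20 weeks, with gaps of 0.21, 0.28, 0.10 and 0.13. The pooled within-group SD of single arrays was 0.18, and the SE of a difference between 2 means was 0.14. The largest gap, 0.28 between HOXB4 cells at 6 and 12 weeks, was not called (limma, adjusted p = 0.343). The order is thus a description of the means.

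Phactr4 (Pearson r = 0.89), Lrfn4 (0.89) and Ptpn14 (0.88) followed Bcl2 most closely over the 15 arrays, with predicted genes again left out.

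The 250 bases before the start of Bcl2 are shown because it is the only other member called. They lie at chr1:106714291-106714540 on the minus strand of GRCm38.p6, 74.8% of them are G or C, and they hold no TAAT.
Bcl2: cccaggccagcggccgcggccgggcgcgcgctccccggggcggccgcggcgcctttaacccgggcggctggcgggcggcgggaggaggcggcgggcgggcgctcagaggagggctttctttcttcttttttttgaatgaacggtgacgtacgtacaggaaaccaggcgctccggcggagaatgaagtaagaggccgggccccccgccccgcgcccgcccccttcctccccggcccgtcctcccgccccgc

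The other survival members did not pass between the vectors. Mcl1, a short-lived protein that binds Bak1 and Bim, was at 9.72, 9.59 and 9.78 in HOXB4 cells, against 9.49, 9.25 and 9.30 in GFP cells at 12 weeks. The groups did not overlap, and the difference was 0.35 ± 0.11 (95% interval 0.11 to 0.60; limma, adjusted p = 0.1). At 20 weeks they overlapped, with 0.13 ± 0.11 (adjusted p = 0.576). The 2 other Mcl1 probe sets gave 0.30 and 0.44 at 12 weeks but -0.21 and -0.34 at 20 weeks, none called, and correlated with the brightest at only 0.09 and 0.11 over the 15 arrays. The sign of Mcl1 at 20 weeks therefore depended on the probe set.

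Bcl2l1 was at 7.21, 7.19 and 7.29 in HOXB4 cells, against 7.07, 7.00 and 7.07 in GFP cells at 12 weeks, a difference of 0.19 ± 0.12 (adjusted p = 0.413). At 20 weeks it was at 7.36, 7.14 and 6.93 in HOXB4 cells, against 6.89, 6.69 and 7.00 in GFP cells, and the groups overlapped (0.28 ± 0.12, 95% interval 0.03 to 0.53, adjusted p = 0.17). All 3 other probe sets were also positive at both times, between 0.03 and 0.81, and none was called.

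Bak1, the measured pore-forming member, was lowest in HOXB4 cells at 6 weeks. It was at 8.84, 10.11 and 9.53 at 6 weeks, at 10.51, 10.41 and 10.38 at 12 weeks, and at 10.39, 10.04 and 9.65 at 20 weeks in HOXB4 cells. The 12-week arrays were above all those of 6 weeks, by 0.93 ± 0.26, which missed the threshold (limma, adjusted p = 0.0758). The lowest of the 6-week values came from the array with the steep Gapdh signal, and the part of RNA quality in it was not tested. Without that array the difference was 0.61 (adjusted p = 0.19), and on the other Bak1 probe set it was 0.86 (adjusted p = 0.272) in place of 1.26 (adjusted p = 0.104). Without the second array of 6 weeks it was 1.24 and was called (adjusted p = 0.00957), the 1 of 14 other settings that called it. In GFP cells Bak1 was at 10.42, 10.79 and 10.41 at 20 weeks, and at 10.50, 10.45 and 10.87 at 12 weeks. The HOXB4 arrays of 20 weeks lay below the GFP arrays of that age by -0.52 ± 0.26 (95% interval -1.06 to 0.03, limma, adjusted p = 0.257). The lowest of them, 9.65, came from the array with a Gapdh gap of 2.02. The other probe set, which had an r of 0.93 with the first, gave -0.83 (adjusted p = 0.227).

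Within HOXB4 cells 0 of 9 members were called by limma at 12 against 6 weeks, at 20 against 12 weeks or at 20 against 6 weeks, beside 1.57%, 0.252% and 4.66% of all genes. At an unadjusted p under 0.05 there were 1 (Bak1), 0 and 1 (Bcl2). The intervals of all 9 lay within 2-fold at 20 against 12 weeks. Over all probe sets, 4 further values against 6 weeks passed. The shares above are of genes, each by its brightest probe set, and no share of all probe sets was set beside these 4. Whether 4 is more than the background was thus not tested. The second probe set of Bad was higher at 12 and at 20 weeks than at 6 weeks by 0.94 and 0.82 (adjusted p = 0.0302 and 0.0325), and without the first 6-week array by 0.80 and 0.68 (adjusted p = 0.0823 and 0.0858). A Bcl2l1 probe set was higher at 12 weeks by 1.79 (adjusted p = 0.0423), and without that array by 1.28 (adjusted p = 0.106). A Bcl2l11 probe set was higher at 20 weeks by 1.13 (adjusted p = 0.0154), and this was still called without that array, at 0.93 (adjusted p = 0.0454). The brightest probe sets of these 3 genes were not called.

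Of the other BH3-only genes none passed. Pmaip1, a p53 target that neutralises Mcl1, was at 4.74, 4.97 and 4.58 in HOXB4 cells, against 4.40, 3.98 and 3.94 in GFP cells at 12 weeks (0.65 ± 0.29, 95% interval 0.03 to 1.27, adjusted p = 0.232). At 20 weeks the groups overlapped (0.09 ± 0.29, adjusted p = 0.898). The third HOXB4 array of 6 weeks stood at 5.69, above the other 14. Bbc3, another p53 target, at 12 weeks was at 5.80, 6.03 and 5.85 in HOXB4 cells, against 5.74, 5.70 and 5.72 in GFP cells. At 20 weeks it was at 5.88, 5.89 and 6.02 in HOXB4 cells, against 5.75, 5.84 and 5.69 in GFP cells. It was separated at both times by the same small amount, 0.17 ± 0.10 (adjusted p = 0.36 and 0.347). Pmaip1 and Bbc3 had 1 probe set each, so no second one could be set beside them.

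For Bcl2l11 and Bad the groups overlapped at both times. Bcl2l11, the activator Bim, differed by 0.05 ± 0.22 at 12 weeks (adjusted p = 0.936) and by 0.39 ± 0.22 at 20 weeks (adjusted p = 0.333). The latest HOXB4 arrays ran from 7.38 to 8.11 and the GFP arrays of that time from 7.16 to 7.49. Its 4 other probe sets gave -0.29 to -0.10 at 12 weeks and -0.48 to 0.40 at 20 weeks, none called. Bad, which Akt holds inactive by phosphorylation, differed by -0.18 ± 0.16 at 12 weeks and by 0.22 ± 0.16 at 20 weeks (adjusted p = 0.606 and 0.484). The third HOXB4 array of 20 weeks, at 8.77, was its highest value, and without it the difference at that time was -0.01. The other Bad probe set gave -0.07 and -0.11 (adjusted p = 0.894 and 0.81), so its sign at 20 weeks was the opposite one.

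**Figure D4:**
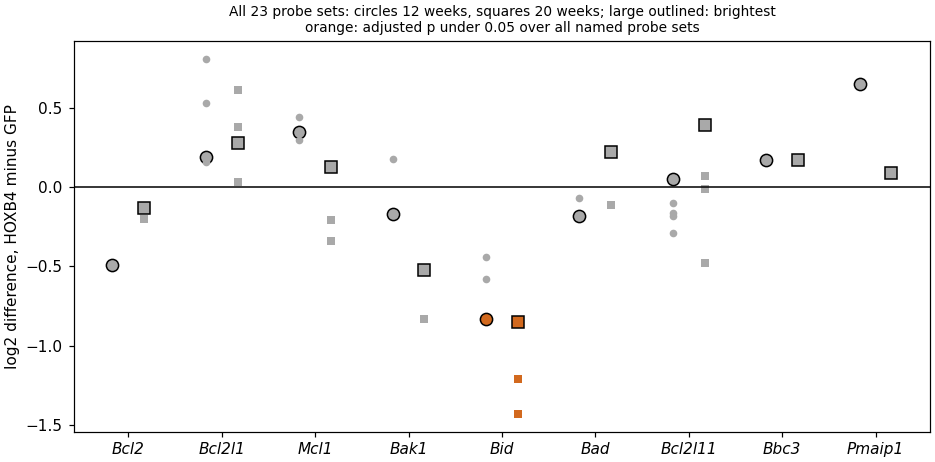
Log2 difference of HOXB4 minus GFP cells for all 23 probe sets, with circles at 12 weeks, squares at 20 weeks, large outlined symbols for the brightest probe set and orange for an adjusted p under 0.05 over all named probe sets. All Bid probe sets lie below 0, and those of Mcl1, Bcl2l11 and Bad fall on both sides of 0 at 20 weeks.

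At 12 weeks 5 members had a positive and 4 a negative difference, and at 20 weeks 6 and 3. Among their 36 pairs the Pearson r over 15 arrays ran from -0.63, for Mcl1 and Bid, to 0.68, for Bcl2l1 and Mcl1. These values are descriptions across arrays that share the groups, and they use the brightest probe sets alone. The brightest probe set of Mcl1 correlated with its others at only 0.09 and 0.11. For Bcl2l1 this was 0.17 to 0.59, and for Bid 0.51 and 0.83.

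Other genes of the pathway were counted in 4 lists, to be read beside the 4.02% of all genes called at 12 weeks and 8.95% at 20 weeks, and beside medians over all genes of -0.02 and 0.02. Of 13 measured further Bcl2 family members, 0 were called by limma at 12 weeks, and 1 was higher and 1 lower at 20 weeks, with medians of 0.02 and 0.09. An unadjusted p under 0.05 was reached by 1 of them at 12 weeks and 6 at 20 weeks, beside 19.6% and 22.1% of all genes. Bok, a Bax relative that can form pores by itself, was higher at 20 weeks, at 6.37, 6.25 and 6.18 in HOXB4 cells, against 5.80, 5.70 and 5.79 in GFP cells. The groups did not overlap (0.50 ± 0.11, adjusted p = 0.00905), and the 12-week difference was 0.40 ± 0.11 (adjusted p = 0.0549). Bcl2l14 was lower at 20 weeks, with 4.52 ± 0.13 in HOXB4 cells and 5.13 ± 0.24 in GFP cells (SD, n = 3; -0.61 ± 0.16 SE, limma, adjusted p = 0.0262). In GFP cells Bcl2a1a, a survival member of myeloid and lymphoid cells, was higher at 20 than at 12 weeks by 0.77 ± 0.17 (adjusted p = 0.0268), the 1 of 13 called. Its probe set may also detect the near-identical copies of this gene, and Bcl2a1b and Bcl2a1d were not analysed here. In other settings the 20-week call held in 16 of 16 for Bok and 11 of 15 for Bcl2l14. The rise of Bcl2a1a in GFP cells was called in 10 of 16.

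Among 18 measured genes of the apoptosome, the caspases and their inhibitors, 2 were lower at 12 weeks and 16 not called, and 1 was higher and 2 lower at 20 weeks (medians -0.04 and -0.05). An unadjusted p under 0.05 was reached by 5 at 12 weeks and 8 at 20 weeks. Aifm1, a mitochondrial flavoprotein that also supports respiration, was lower at both times. It was at 6.92, 7.32 and 7.09 in HOXB4 cells, against 8.03, 7.65 and 7.81 in GFP cells at 12 weeks (-0.72 ± 0.17, adjusted p = 0.0274). At 20 weeks it was at 6.96, 7.25 and 6.78 in HOXB4 cells, against 7.48, 7.77 and 7.63 in GFP cells (-0.63 ± 0.17, adjusted p = 0.0293). Neither pair of groups overlapped. Of 16 other settings, 12 called the 12-week difference of Aifm1 and 11 the 20-week one. Cycs, the cytochrome c that Bax and Bak1 release, was lower at 20 weeks, at 10.06, 9.89 and 9.50 in HOXB4 cells, against 10.54, 10.64 and 10.37 in GFP cells (-0.70 ± 0.20, adjusted p = 0.0373). Of its 2 other probe sets 1 was lower too (-0.74, adjusted p = 0.00307) and 1 was not called (0.31). Cycs was called in 11 of 16 other settings, and its lowest value at 20 weeks, 9.50, came from the array with a Gapdh gap of 2.02. Apaf1, the scaffold that cytochrome c activates, rose in GFP cells with time. It was at 7.92, 7.87 and 7.77 at 20 weeks, against 7.28, 7.24 and 7.34 at 12 weeks (0.57 ± 0.13, adjusted p = 0.0393). This rise was called in 8 of 16 other settings, and the other Apaf1 probe set was not called (0.38, adjusted p = 0.569).

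Fadd, the adaptor that joins death receptors to caspase 8, the enzyme that cleaves Bid, had opposite vector differences at the 2 times. It was at 7.51, 7.72 and 7.59 in HOXB4 cells, against 8.29, 8.25 and 8.19 in GFP cells at 12 weeks (-0.64 ± 0.15, adjusted p = 0.0328). At 20 weeks it was at 7.92, 8.31 and 8.04 in HOXB4 cells, against 7.37, 7.88 and 7.45 in GFP cells (0.52 ± 0.15, adjusted p = 0.0494). Of 16 other settings, 8 called the 12-week difference and 6 the 20-week one. The other Fadd probe set was lower at both times and not called (-0.24 and -0.40, adjusted p = 0.425 and 0.113), and with the mean of both probe sets the 20-week difference was 0.06 (adjusted p = 0.84). In GFP cells Fadd fell between the 2 ages, by -0.68 ± 0.15 at 20 against 12 weeks (limma, adjusted p = 0.0333). In HOXB4 cells it was higher at 20 than at 6 weeks by 0.70 ± 0.15 (adjusted p = 0.022), and 20 against 12 weeks was not called (0.48, adjusted p = 0.236). The other probe set gave -0.18 and -0.23 in the GFP and the 6-week comparison (adjusted p = 0.716 and 0.418).

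Of 20 measured genes of p53 and its targets, 1 was higher at 12 weeks and 2 were lower at 20 weeks, with medians of 0.01 and 0.05. At each time 5 reached an unadjusted p under 0.05. Trp53inp1, a stress-induced p53 target, was at 9.22 ± 0.09 in HOXB4 cells and 7.87 ± 0.25 in GFP cells at 12 weeks (SD, n = 3; 2.54-fold, limma, adjusted p = 0.0254), and its other probe set was higher by 1.08 (adjusted p = 0.0162). At 20 weeks the death receptor Tnfrsf10b was lower by -0.52 ± 0.13 (adjusted p = 0.0196) and the nuclease Aen by -0.45 ± 0.13 (adjusted p = 0.0415). The other Tnfrsf10b probe set gave -0.33 and was not called (adjusted p = 0.358), and of the 2 other Aen probe sets 1 was lower (-0.79, adjusted p = 0.00848) and 1 was not called (-0.11, adjusted p = 0.814). Of 16 other settings, 10 called Trp53inp1 at 12 weeks, and 13 called Tnfrsf10b and 9 called Aen at 20 weeks. Bbc3 and Pmaip1, which this list shares with the family, are given above. Trp53 was not analysed here.

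Of 18 other regulators of the family, 0 were called by limma at 12 weeks (2 at an unadjusted p under 0.05, median -0.13). At 20 weeks 1 was higher and 1 lower (4 at an unadjusted p under 0.05, median -0.05). Foxo3, a transcription factor that preserves quiescent stem cells and is known to activate Bcl2l11 and Bbc3, was higher at 20 weeks. It was at 10.27, 10.28 and 10.58 in HOXB4 cells, against 9.69, 9.69 and 9.80 in GFP cells, without overlap (0.65 ± 0.11, adjusted p = 0.00136). At 12 weeks it was at 10.10, 10.18 and 10.17 in HOXB4 cells, against 10.35, 10.37 and 10.32 in GFP cells, so the order of the groups was the other way round. In GFP cells it fell between the 2 ages, by -0.62 ± 0.11 at 20 against 12 weeks (adjusted p = 0.00625). Its 2 other probe sets had the same signs at 20 weeks (0.23 and 0.33) and were not called. The outer membrane channel Vdac2, which holds Bak1 at mitochondria, was lower at 20 weeks by -0.55 ± 0.14 (adjusted p = 0.0282). In other settings the 20-week call held in 15 of 16 for Foxo3 and 11 of 16 for Vdac2.

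**Figure D5:**
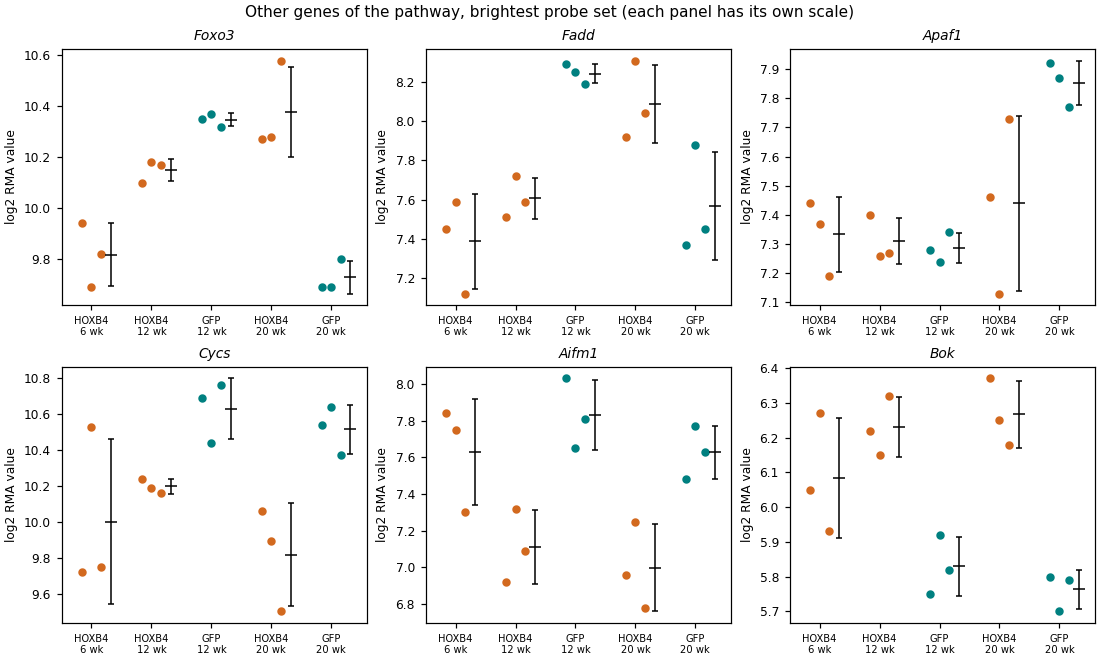
Log2 RMA values of 6 further genes of the pathway, brightest probe set; points are arrays in replicate order, bars the group mean ± SD (n = 3), orange HOXB4 and teal GFP, and each panel has its own scale. Foxo3 and Fadd lay lower on the HOXB4 than on the GFP arrays at 12 weeks and higher at 20 weeks, and Aifm1 lay lower at both times.

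The 2 members known as Foxo3 targets each had 1 window with TGTTTAC, or GTAAACA on the other strand, the core FOXO motif, which 3.17% of the 32851 windows held. Both genes differed by less than the threshold at 20 weeks, when Foxo3 was called higher. The stretches are shown so that these motifs can be seen in place, with the match in capitals. The one of Bcl2l11 lies at chr2:128125800-128125829, on the plus strand, 227 bases before the start, and that of Bbc3 at chr7:16310083-16310112, on the plus strand, 167 bases before one of its starts and inside the span of the gene (GRCm38.p6). The 2 motifs do not share letters with a TAAT. A STAT5-type motif, TTCNNNGAA, was in 7.02% of all windows and in 0 of the 15 windows of the family.
Bcl2l11: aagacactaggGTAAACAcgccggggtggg
Bbc3: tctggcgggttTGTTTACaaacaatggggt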

How the data were processed

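Biotin-labelled cDNA from 15 RNA samples was hybridised to microarrays. The deposited values are log2 expression, and the submitters' processing notes name Partek 6.5 and RMA, a method that scales arrays to each other. Further filters are not given in the sources used here. Of 45141 probe sets, 28898 had 1 gene symbol in the platform annotation, 551 had several and 15692 were not listed there. The brightest probe set of each of 17097 genes was fitted with limma 3.58.1 in R 4.3.3, with 1 mean per group, 10 residual and 4.55 prior degrees of freedom, and two-sided tests adjusted by Benjamini-Hochberg. An exact permutation test of 3 against 3 arrays cannot go below 0.1, so p-values rest on the model. The procedure was tested on simulated data.

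The members, gene lists and comparisons were chosen with earlier results of these data known. Named are all members with every probe set, up to 4 genes per pathway list and comparison by smallest p, and the 3 genes most correlated with each called member. Symbols of predicted genes (Gm plus digits, or ending in Rik) were left out of that correlation ranking. The 2 vector comparisons, their difference and the comparisons of GFP cells share arrays. Alternatives were quantile normalisation, median centring, a filter removing the dimmest 33.3% of genes, all probe sets, their mean per gene, another moderation, only the groups compared, a replicate block and each array left out. The 6-week arrays were left out of the shared fit in alternatives chosen after seeing the data. Windows of 250 bases before starts come from RefSeq (GRCm38.p6), found for 9 of the 10 listed genes, and not for Pmaip1.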

Additional observations from a re-analysis of the deposited data

Results flagged for a closer look

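The difference between the vectors changed with time for 2 genes of the pathway, by the test of that difference. Fadd differed by 1.16 ± 0.22 between 20 and 12 weeks (limma, adjusted p = 0.0287), with HOXB4 cells below GFP cells at 12 weeks and above them at 20 weeks. It was called in 13 of 22 other settings, and the other Fadd probe set gave -0.17 (adjusted p = 0.895). Foxo3 differed by 0.85 ± 0.15 (limma, adjusted p = 0.0208), also lower on the HOXB4 arrays at 12 weeks and higher at 20 weeks. It was also called in 13 of 22 other settings, with adjusted p from 0.0165 to 0.138, and its 2 other probe sets gave 0.61 and 0.59 (adjusted p = 0.457 and 0.445).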

How the results depend on the processing

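Of 1019 values of the members under other settings, 991 kept their side of the threshold, 19 lost a call, 9 gained one and 0 were called in the opposite direction. The 991 include uncalled values that changed sign, such as Mcl1 at 20 weeks, at 0.13 in the main fit and down to -0.14 in another setting. Over members, list genes and probe sets, 46 of 1416 values changed sign where neither setting called them. At 12 weeks 1 member was called, 0 after quantile normalisation (Bid -0.71, adjusted p = 0.0759), 4 with only the 2 groups in the fit (Bcl2, Mcl1, Bid and Pmaip1), 2 with all 6-week arrays or only the first of them left out of the shared fit, and 0 to 0 with 1 array left out. At 20 weeks 1 was called, 0 with only the groups compared in the fit (Bid adjusted p = 0.0986), and 0 to 1 with 1 array left out. For GFP cells at 20 against 12 weeks 1 was called, 0 with arrays centred (Bcl2 adjusted p = 0.0539), 0 over all probe sets (0.0507), and 0 to 1 with 1 array left out. For HOXB4 cells the counts were 0 to 1 with 1 array left out at 12 against 6 weeks and at 20 against 6 weeks, where quantile normalisation gave 1 (Bcl2 -0.59, adjusted p = 0.0268). Where no cause is stated, the cause was not tested.

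The replicate numbers were not treated as pairs in the main fit. The 18 same-number correlations of deviations from the group means ran from -0.17 to 0.07. They show no strong shared effect, but they cannot show that the arrays were unpaired. With the replicate block 0 members were called for GFP cells at 20 against 12 weeks (Bcl2 adjusted p = 0.0674), and no other member count changed.

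Counts over all genes moved more. The 688 of 12 weeks ranged from 494 to 2593 under other settings and from 214 to 362 with 1 array left out, and the 1530 of 20 weeks from 715 to 2408 and from 798 to 1585. The 87 of the difference between times ranged from 76 to 183 and from 38 to 222, and the 406 of GFP cells from 352 to 625 and from 192 to 503. In HOXB4 cells the 268 of 12 against 6 weeks ranged from 20 to 551 and from 0 to 923, the 43 of 20 against 12 weeks from 14 to 135 and from 1 to 101, and the 796 of 20 against 6 weeks from 1 to 1165 and from 397 to 1116. At 12 weeks 312 genes were higher and 376 lower in HOXB4 cells, 267 and 227 after quantile normalisation, and 282 and 490 with arrays centred. Both scalings moved the median difference of all genes by less than the 0.1 level of log2.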
